A study of Schizosaccharomyces pombe with 12 samples.

Results

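The genes described here encode the enzymes that charge, modify, trim and repair transfer RNA in Schizosaccharomyces pombe, the fission yeast. They were taken from the product descriptions in 3 deposited comparison tables as all protein-coding genes whose product names tRNA, leaving out products that name rRNA, an RNA polymerase or TFIII. The rule found 101 genes among 6888 listed, of which 5118 are protein-coding: 34 whose product reads tRNA ligase and 67 other tRNA enzymes. Polyadenylated RNA was sequenced from 4 strains with 3 samples each, grown at 30 °C in rich YEA medium to log phase. The med20Δ strain is h+ with leu1-32 and ura4-D18 and has med20, a subunit of the Mediator head, replaced by a nourseothricin marker (NAT). The rrp6Δ strain is h- with leu1-32, his2, ura4 DS/E and a ura4 reporter at otr1R, and has rrp6, the nuclear exosome's exonuclease, replaced by KanMx6. The double mutant carries both deletions with leu1-32 and a ura4 allele that the labels write as ura4-D18, ura4-D19 or ura4-D20. The wild type is h- and is named L972, L973 and L974 in its 3 labels. The strains therefore differ in auxotrophic markers as well as in med20 and rrp6, and these differences cannot be told apart from the deletions. The design names biological replicates without saying whether they were separate cultures, so a p-value measures only how these samples spread, which may be technical.

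Aminoacyl-tRNA ligases, also called synthetases, join each amino acid to its tRNA and so supply the ribosome. A cell keeps one set of ligases for the cytoplasm and another, encoded by separate nuclear genes for most amino acids, for translation inside mitochondria, while a few genes serve both places. After transcription, tRNAs are trimmed, spliced, given a CCA end and modified at many bases by methyltransferases, pseudouridine synthases, dihydrouridine synthases and deaminases, changes that keep the tRNA folded and tune how its anticodon reads codons. By their products, 33 of the 34 ligase genes charge tRNA: 14 named cytoplasmic, 4 named for both compartments (ala1, mrs1, grs1 and hrs1), 3 with no place named (gus1, frs1 and wrs1) and 12 mitochondrial. The first 3 groups are called the 21 ligases of the cytoplasm below. Another 2 mitochondrial charging enzymes, msf1 (phenylalanine) and mse1 (glutamate), have products that read synthetase rather than ligase, so the rule counts them among the 67 other enzymes and the 12 are not the full mitochondrial set. The remaining gene, trl1, encodes the ligase that rejoins the exons of a tRNA in splicing. Symbols are those of RefSeq, in which rar1 is the methionine ligase, mrs1 the arginine ligase and the cysteine ligase has only its identifier, SPAC29E6.06c.

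The tables give group means, which were split into the counts of the single libraries. All 101 genes were solved in all 12 libraries. Totals, taken over the 6688 genes solved in all 12, ranged from 8367062 to 11609729 counts. Levels below are normalised counts, that is, a library's count over its size factor. The deleted genes matched the labels: med20 lay between 2.52 and 6.30 in med20Δ and between 20.1 and 29.7 in the double mutant, against 682 to 733 in wild type, and rrp6 lay between 0.823 and 2.85 in rrp6Δ and between 0.874 and 1.86 in the double mutant, against 1106 to 2148 in wild type. The ura4 gene stood at 2477, 2764 and 2104 in med20Δ, although its label names the ura4-D18 deletion. In each strain 1 library (med20Δ 1, rrp6Δ 2, double mutant 2 and wild type 1) lay at the same end of the third principal component, which held 14.8% of the variance, and double mutant 1 lay farthest from wild type on the first. Libraries are numbered by the order of their recovered step and cannot be matched to the letters of the labels.

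Most ligases of the cytoplasm were lower in the double mutant than in wild type. In the authors' deposited table, 20 of the 34 ligase genes were lower at an adjusted p under 0.05 and 0 were higher, where 6.71% of all genes listed were lower and 8.59% were higher. The 20 comprised 18 of the 21 ligases of the cytoplasm and 2 of the 12 mitochondrial ones. The median log2 fold change was -1.33 over the ligases of the cytoplasm and -0.02 over the mitochondrial ones, against -0.18 over all protein-coding genes. With limma on the recovered counts the number was also 20 lower and 0 higher, where 15.2% of genes tested were lower and 15.5% higher, and the 18 and the 2 were the same genes by both methods. Levels are shares of the sequenced RNA, so fewer cells holding a transcript and less of it per cell cannot be told apart.

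**Figure D1:**
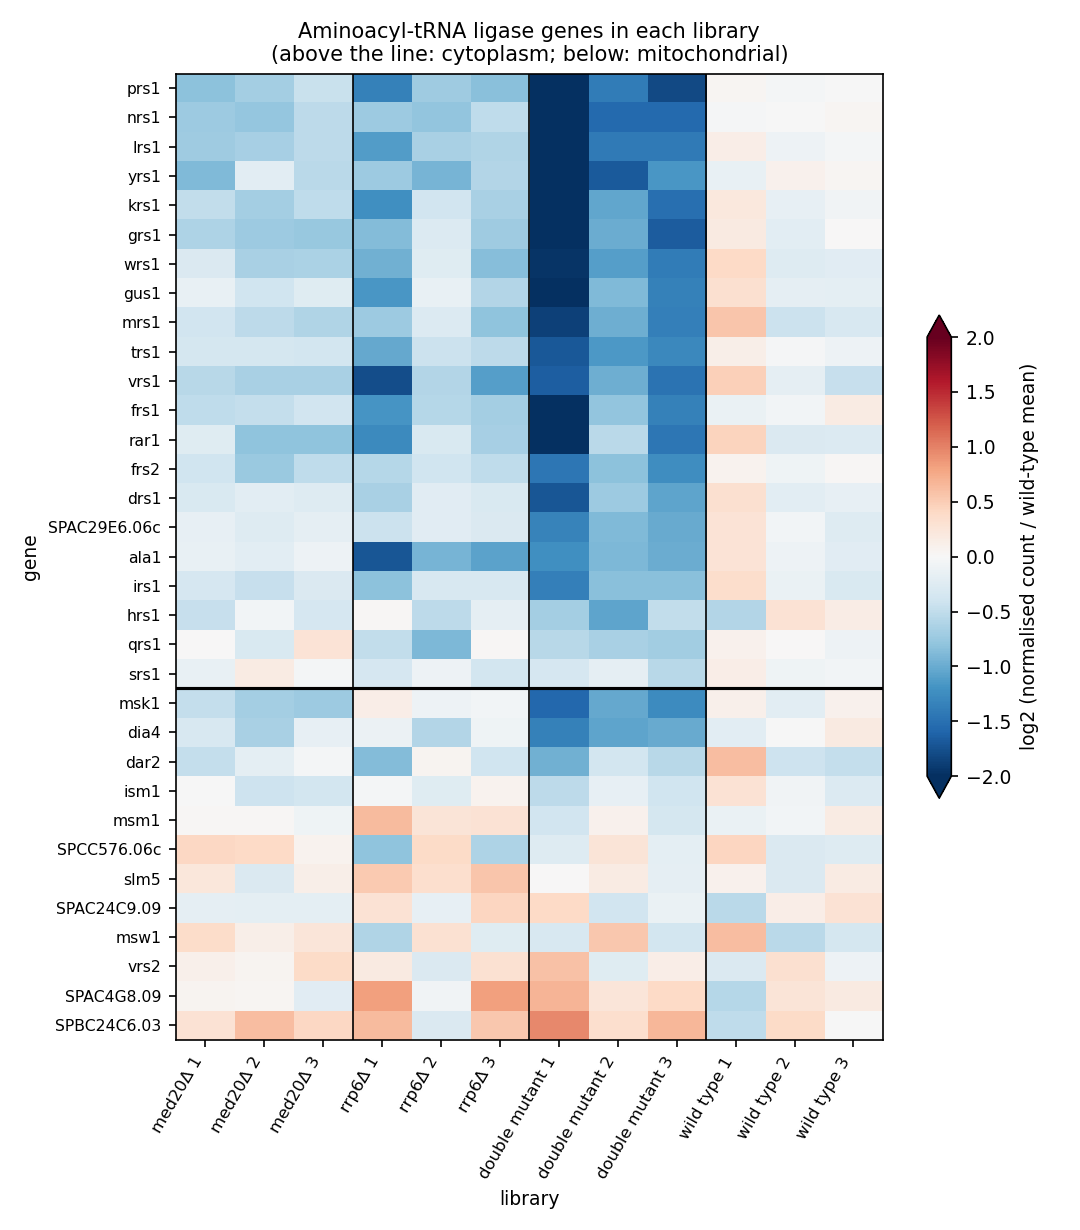
Rows are the 21 ligases of the cytoplasm (above the line) and the 12 mitochondrial ligases (below), columns the 12 libraries by strain, and colour the log2 ratio of the normalised count to the gene's wild-type mean (blue lower, red higher, colours end at -2 and 2). The double mutant columns are blue for nearly all ligases of the cytoplasm, darkest in library 1, while below the line msk1 and dia4 stand out.

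The proline ligase prs1 was lower by the widest margin among the ligases. Its normalised counts were 4863, 11827 and 8909 in the double mutant, against 32190, 30457 and 30976 in wild type. The groups did not overlap, and the deposited log2 fold change was -1.87 (adjusted p = 1.14e-05). The lysine ligase krs1, the most abundant ligase per coding length, had 5579, 16318 and 11885 in the double mutant, against 38777, 30005 and 32109 in wild type, and its deposited log2 fold change was -1.57 (adjusted p = 0.000227). Library 1 of the double mutant held the fewest krs1 counts and library 2 the most, yet all 3 lay below every wild-type library.

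The asparagine ligase nrs1 had 3594, 5255 and 5312 in the double mutant, against 15211, 15444 and 15910 in wild type and a deposited log2 fold change of -1.71 (adjusted p = 9.7e-05). The leucine ligase lrs1 had 3515, 6144 and 6163 in the double mutant, against 17999, 15292 and 16090 in wild type, a log2 fold change of -1.64 (adjusted p = 0.00017). The tyrosine ligase yrs1 had 1713, 2342 and 3343 in the double mutant, against 6789, 7979 and 7703 in wild type, a log2 fold change of -1.60 (adjusted p = 0.000279). In each of these genes the highest double mutant library was below the lowest wild-type library. The glycine ligase grs1, which serves cytoplasm and mitochondria from a single gene, had 3812, 8750 and 5526 in the double mutant, against 19784, 15117 and 17493 in wild type and a log2 fold change of -1.53 (adjusted p = 0.000479). The tryptophan ligase wrs1 followed at -1.44 (adjusted p = 0.00113), the glutamate ligase gus1 at -1.37 (adjusted p = 0.00172), the arginine ligase mrs1 at -1.36 (adjusted p = 0.0482) and the threonine ligase trs1 at -1.35 (adjusted p = 0.00283).

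Both subunits of the cytoplasmic phenylalanine ligase were lowered, the beta subunit frs1 by a deposited log2 fold change of -1.33 (adjusted p = 0.00298) and the alpha subunit frs2 by -1.14 (adjusted p = 0.0154). Their counts stayed near each other: the ratio of frs1 to frs2 was 0.933, 1.60 and 1.43 in the double mutant, against 1.35, 1.60 and 1.72 in wild type, with overlapping ranges. The remaining called ligases of the cytoplasm were those for valine (vrs1, log2 fold change -1.33), methionine (rar1, -1.25), aspartate (drs1, -1.10), cysteine (SPAC29E6.06c, -1.06), alanine (ala1, -1.03) and isoleucine (irs1, -0.99), with adjusted p between 0.016 (drs1) and 0.042 (rar1). In 20 of the 21 genes, all but hrs1, every double mutant library lay below every wild-type library, and in 17 of 21 when libraries were scaled to their total counts. Without that scaling, the same held for 2 of the 12 mitochondrial ligases and 25 of the 67 other tRNA enzymes. Of these 2 sets, 0 and 4 genes lay wholly above wild type. Scaled to total counts, 2 of the 12 mitochondrial ligases lay wholly below wild type and 3 wholly above. For the 67 other enzymes these counts were 9 and 9 under that scaling. The share of all genes that separated in this way is not given here.

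Among the ligases, 3 genes of the cytoplasm were not called. The serine ligase srs1 had 5544, 6178 and 4773 in the double mutant, against 7656, 6557 and 6768 in wild type, which did not overlap but lay close, with a log2 fold change of -0.34 (adjusted p = 0.592). The glutamine ligase qrs1 had 406, 380.2 and 367 in the double mutant, against 636, 601 and 554 in wild type, a log2 fold change of -0.63 (adjusted p = 0.278). The histidine ligase hrs1, whose groups overlapped, had 1038, 799 and 1189 in the double mutant, against 1116, 2044 and 1840 in wild type, a log2 fold change of -0.72 (adjusted p = 0.196). Per kilobase of coding sequence the 3 genes did not share a level. In wild type, srs1 stood at 5169 ± 431 counts per kilobase (SD, n = 3), hrs1 at 985 ± 288 and qrs1 at 245 ± 17.0, the lowest of the 21. The highest were krs1 at 18940 ± 2580, prs1 at 14510 ± 414 and gus1 at 9175 ± 1940, and gus1 did not differ from nrs1 (9093 ± 209) beyond the spread.

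The 12 mitochondrial ligases were expressed at lower levels, between 91.5 (vrs2, valine) and 506 (msw1, tryptophan) counts per kilobase in wild type. Of these, 2 were lower in the double mutant. The lysine ligase msk1 had 222, 324 and 276 in the double mutant, against 709.9, 569.9 and 705 in wild type, a deposited log2 fold change of -1.26 (adjusted p = 0.00988). The serine ligase dia4 had 217, 266 and 275 in the double mutant, against 478, 547 and 627 in wild type, a log2 fold change of -1.12 (adjusted p = 0.0291). In both, the groups were apart. With msf1 (0.46, adjusted p = 0.454) and mse1 (-0.16, adjusted p = 0.859) added, the mitochondrial set of 14 had 2 lower and a median of -0.02. The other 10 of the 12 were not called and ranged from -0.60 (dar2, aspartate) to 0.69 (SPBC24C6.03, proline) in log2 fold change, with 4 below 0 and 6 above.

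The proline pair showed the widest gap between the compartments. Against the lowered prs1, the mitochondrial SPBC24C6.03 had 647, 418 and 526 in the double mutant, against 233, 432 and 329.8 in wild type, with overlapping ranges and a deposited log2 fold change of 0.69 (adjusted p = 0.206). The ratio of prs1 to SPBC24C6.03 counts within a library was 7.52, 28.3 and 16.9 in the double mutant, against 138, 70.5 and 93.9 in wild type. In the lysine pair both genes were lower: the ratio of krs1 to msk1 was 25.1, 50.3 and 43.0 in the double mutant, against 54.6, 52.7 and 45.6 in wild type. The serine pair ran the other way, with srs1 not called and dia4 lower, and the ratio of srs1 to dia4 was 25.6, 23.3 and 17.3 in the double mutant, against 16.0, 11.98 and 10.8 in wild type. These ratios need no scaling between libraries. The pairs named here were chosen after their values were seen.

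Shares below are percents of a library's recovered counts over the 6688 genes solved in all 12 libraries. Means left unsolved were all at 6329 or above, so some abundant transcripts are missing from these totals. Summed over genes, the ligases of the cytoplasm took, in percent, 1.83, 1.61 and 1.73 in med20Δ and 1.55, 1.97 and 1.86 in rrp6Δ. They took 0.898, 1.39 and 1.16 in the double mutant, against 2.49, 2.23 and 2.19 in wild type. The 12 mitochondrial ligases took, in percent, 0.0589, 0.0505 and 0.0521 in med20Δ, 0.0768, 0.0620 and 0.0729 in rrp6Δ and 0.0711, 0.0609 and 0.0570 in the double mutant, against 0.0551, 0.0540 and 0.0530 in wild type. The ratio of the sums was 31.1, 31.8 and 33.1 in med20Δ, 20.2, 31.8 and 25.6 in rrp6Δ and 12.6, 22.8 and 20.3 in the double mutant, against 45.2, 41.4 and 41.3 in wild type. For that ratio and for the first share, all 9 mutant libraries lay below all 3 wild-type libraries, and those of the double mutant and rrp6Δ overlapped in the ratio. With msf1 and mse1 in the lower sum, the ratio was 10.6, 19.7 and 16.7 in the double mutant, against 41.3, 34.9 and 36.0 in wild type. The share of the 12 mitochondrial ligases did not separate med20Δ from wild type and was higher than wild type in all 3 rrp6Δ and all 3 double mutant libraries.

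**Figure D2:**
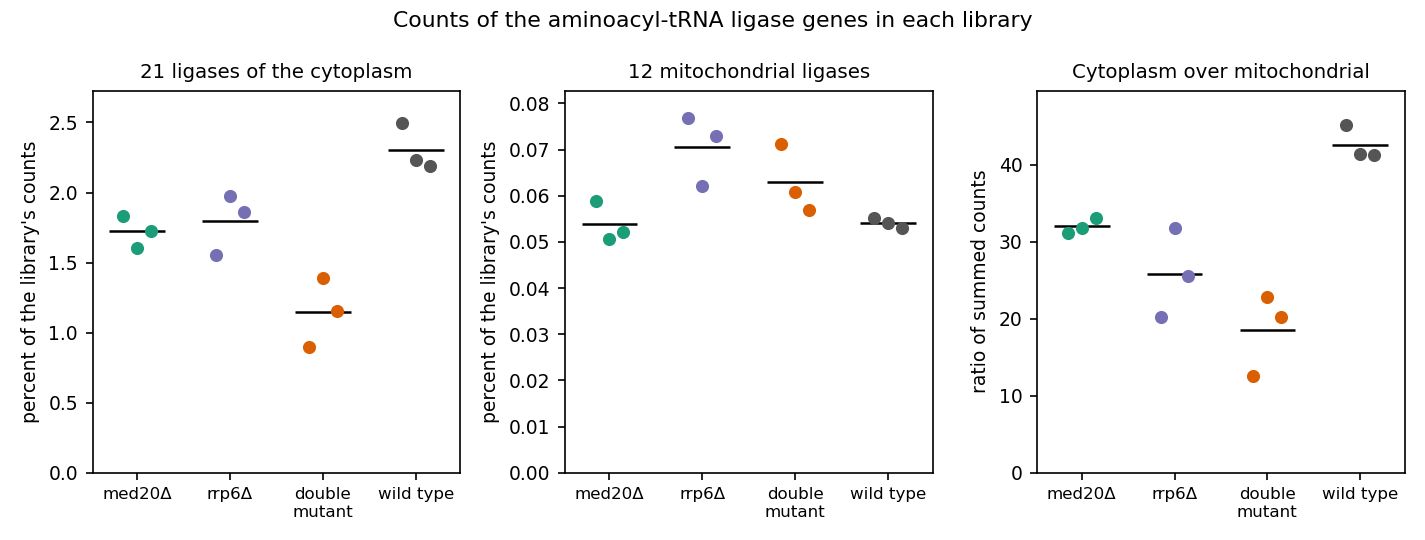
Points are libraries and bars the mean of 3. The panels give, by strain, the summed counts of the 21 ligases of the cytoplasm and the 12 mitochondrial ligases, and their ratio. Sums are a percent of the library's recovered counts over genes solved in all 12 libraries. The ratio lies between 12.6 and 22.8 in the double mutant and between 41.3 and 45.2 in wild type.

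The ligases of the cytoplasm are abundant transcripts, and abundant transcripts as a whole were lower in the double mutant. Among protein-coding genes outside the tRNA enzymes with a deposited wild-type mean of 5000 to 40000, 24.3% of 556 were called lower and the median log2 fold change was -0.66. In the same range lay 18 ligases of the cytoplasm, of which 17 were called lower. Among genes with a wild-type mean of 200 to 1000, 4.04% of 1831 were called lower with a median of -0.02, and that range held 11 of the 12 mitochondrial ligases. How much of the difference between the 2 sets of ligases goes with their level was not tested.

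**Figure D3:**
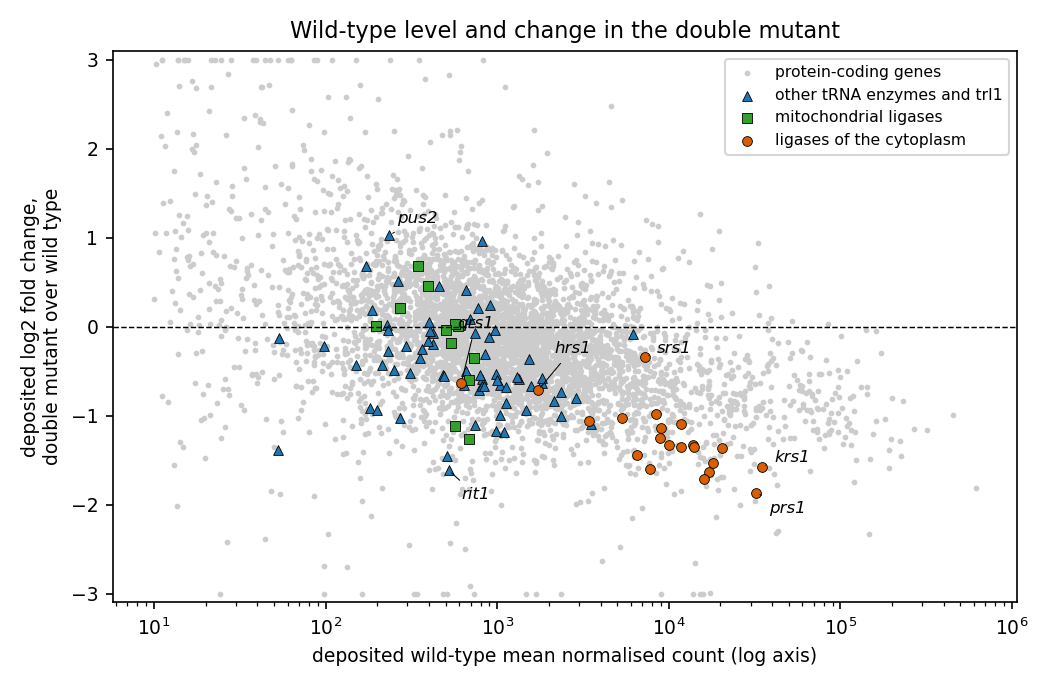
Each symbol is a gene, placed by its deposited wild-type mean (log axis) and its deposited log2 fold change in the double mutant over wild type; grey dots are protein-coding genes with a mean of at least 10, drawn at the edge where the change is beyond 3. The orange circles of the ligases of the cytoplasm lie at high means and mostly between -0.99 and -1.87, with srs1 at -0.34.

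In the single mutants these ligases lay nearer to wild type, and few passed the test. In med20Δ, 0 of the 101 genes were called in the deposited table, where 2.37% of all genes were called in either direction. Of the 101, 13 had an unadjusted p under 0.05 there, against 12 in rrp6Δ and 35 in the double mutant by the same test. The share of all genes with such a p is not given here. For med20Δ, limma called 1 of the 101 higher (slm3), where 2.24% of genes tested were. The ligases of the cytoplasm had a median log2 fold change of -0.52 in that comparison, with 20 of 21 below 0 and the lowest value -0.71 at grs1. The mitochondrial ligases had a median of -0.04. In rrp6Δ, 1 of the 101 genes, ala1, was called lower in the deposited table, where 1.00% of all genes were, and limma called 2 ligases lower (ala1 and vrs1), where 1.77% of genes tested were. The ligases of the cytoplasm had a median of -0.60 in rrp6Δ with 21 of 21 below 0, against 0.07 for the mitochondrial ones. All comparisons with wild type share the same 3 wild-type libraries, so their values are not independent.

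The alanine ligase ala1, which serves both compartments, had 4620, 4442 and 4774 in med20Δ, 1557, 2696 and 2436 in rrp6Δ, 2180, 2738 and 2564 in the double mutant, against 6188, 4799 and 4377 in wild type. The rrp6Δ libraries and those of the double mutant lay below all of med20Δ and wild type, while med20Δ and wild type overlapped. The deposited log2 fold change was -1.17 (adjusted p = 0.00506) in rrp6Δ, -1.03 (adjusted p = 0.0304) in the double mutant and -0.16 (adjusted p = 1) in med20Δ. Between the double mutant and rrp6Δ, limma gave 0.19 ± 0.23 (SE), adjusted p = 0.653. For comparison, prs1 had 17657, 19442 and 22897 in med20Δ and 12205, 19131 and 17390 in rrp6Δ, all below its wild-type libraries and above its double mutant libraries.

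Other tRNA enzymes with the widest shifts in a single mutant were not called by the deposited test. The mitochondrial hydrolase pth1, which frees peptidyl-tRNA, had 149, 203 and 190.4 in med20Δ, 468, 395 and 378 in rrp6Δ and 222, 177 and 332 in the double mutant, against 196, 366 and 292 in wild type. Its rrp6Δ libraries lay above all others and its med20Δ libraries overlapped wild type, with deposited log2 fold changes of -0.67 (adjusted p = 0.474) in med20Δ and 0.57 (adjusted p = 0.459) in rrp6Δ. The mitochondrial processing enzyme trz2 had 799, 333 and 500.5 in med20Δ, 421, 1148 and 485 in rrp6Δ and 278, 833 and 279 in the double mutant, against 1927, 575 and 661 in wild type. In each strain the highest library for trz2 (med20Δ 1, rrp6Δ 2, double mutant 2 and wild type 1) was the one set apart on the third principal component. That library stood far above its partners in wild type, rrp6Δ and the double mutant, and all groups overlapped. Among methyltransferases, trm44 had 1096, 1135 and 1098 in med20Δ, against 2329, 1593 and 1386 in wild type, apart, with a log2 fold change of -0.68 (adjusted p = 0.35), while pmt1 stood at -0.76 (adjusted p = 0.732) with overlap. In rrp6Δ, trm1 stood at -0.51 (adjusted p = 0.512), rib2 at -0.56 (adjusted p = 0.796) and trm10 at 0.39 (adjusted p = 0.838). The modification enzyme ips1 stood at 0.31 (adjusted p = 0.897) in med20Δ.

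Mitochondrial ligases made up the highest values among ligases in rrp6Δ, none of them called: SPAC4G8.09 (leucine) at 0.61, slm5 (asparagine) at 0.51, msm1 (methionine) at 0.44 and SPAC24C9.09 (threonine) at 0.24, with SPBC24C6.03 (proline). The slm5 counts were 272, 238 and 278 in rrp6Δ, against 201, 154 and 211 in wild type, without overlap (adjusted p = 0.574). The tyrosine ligase SPCC576.06c stood at 0.29 (adjusted p = 0.946) in med20Δ. Per kilobase of coding sequence, the lowest ligases in wild type after vrs2 were slm5 at 142 ± 23.2 and SPAC4G8.09 at 144.5 ± 41.0 (SD, n = 3), which did not differ beyond the spread. Among the other enzymes the highest were asc1, a predicted cofactor of methionine and glutamate charging, at 4428 ± 1150, trm7 at 2648 ± 404 and trm61 at 2085 ± 287, and the lowest were fmt1 at 50.1 ± 7.92, dtd1 at 114 ± 12.9 and til1 at 121 ± 14.6.

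Set against each single mutant, the double mutant was lower in a smaller number of ligases. Against med20Δ, limma called 15 of 34 ligases lower and 0 higher, where 5.53% of all genes tested were lower and 8.95% higher. These were 13 ligases of the cytoplasm with msk1 and dia4. The lowest adjusted p was that of nrs1, at a log2 difference of -1.07 ± 0.22 (SE), adjusted p = 0.00603 by limma. Against rrp6Δ, 7 of 34 were lower and 0 higher, where 3.81% of genes tested were lower and 4.43% higher: nrs1, lrs1, yrs1, grs1 and SPAC29E6.06c of the cytoplasm, with msk1 and dia4. The lowest was msk1 at -1.28 ± 0.20 (SE), adjusted p = 0.0016 by limma, with 222, 324 and 276 in the double mutant, against 725, 619 and 634 in rrp6Δ. Its med20Δ libraries, at 476, 415 and 401, lay between those of the double mutant and those of the other strains.

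These counts depended on scaling and on single libraries. Scaled to total counts, 6 ligases were lower than in med20Δ and 8 lower than in rrp6Δ. Against med20Δ, limma called 4 ligases lower without double mutant 1 or without med20Δ 3, and 7 without med20Δ 1, med20Δ 2 or double mutant 3. Against rrp6Δ it called 1 without rrp6Δ 3, 2 without double mutant 1, 3 without rrp6Δ 1 or rrp6Δ 2, 4 without med20Δ 3, wild type 2 or wild type 3, and 13 without double mutant 2. The count of 20 ligases lower than wild type was between 19 and 21 by limma, whichever library of the 2 strains was left out. The interaction term, which asks whether the effect of one deletion depends on the other, was called for 0 of the 101 genes by limma, where 0.229% of all genes were called. Of the 101, 3 had an unadjusted p under 0.05, where 6.84% of all genes tested did, and the lowest adjusted p was 0.508. The interaction estimate was below 0 for 19 of 21 ligases of the cytoplasm, with a median of -0.30. For krs1 it was -0.40 ± 0.50 (SE), smaller than its standard error. The interaction estimate was also below 0 for 12 of 12 mitochondrial ligases (median -0.11) and 49 of 67 other tRNA enzymes (median -0.19). The lean was therefore not particular to the ligases of the cytoplasm. All these genes were read in the same libraries, so their signs are not independent. The share of all genes below 0 is not given here.

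Few of the 67 other tRNA enzymes were called. In the double mutant 5 were lower and 0 higher in the deposited table, with a median log2 fold change of -0.54 and 56 of 67 below 0. The share called, 5 of 67, is near the 6.71% of all genes. Limma called 20 lower and 2 higher (pus2 and til1), where 15.2% and 15.5% of genes tested were, and 8 lower without double mutant 1. The 5 called genes act on different parts of the tRNA. For rit1, whose product modifies the initiator methionine tRNA and in budding yeast keeps it out of elongation, the counts were 162, 169.6 and 159 in the double mutant, against 547, 563 and 398 in wild type, and the deposited log2 fold change was -1.61 (adjusted p = 0.000884). For deg1, a predicted tRNA pseudouridine synthase, they were 140.5, 208 and 185 in the double mutant, against 402, 514 and 555 in wild type, and the log2 fold change was -1.46 (adjusted p = 0.00315). For rit1 the counts were 249, 315 and 408 in med20Δ, which overlapped wild type, and 257, 303 and 355 in rrp6Δ, between the double mutant and wild type. In deg1 both single mutants lay between, as it had 342, 346 and 366 in med20Δ and 368, 314 and 378 in rrp6Δ.

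The other 3 were methyltransferase genes. For trm8, the catalytic subunit of the enzyme that methylates guanine at N7, the counts were 657, 850.3 and 676 in med20Δ, 1012, 841 and 939 in rrp6Δ, 359, 385 and 519.7 in the double mutant, against 810.0, 1070 and 979 in wild type. The double mutant libraries lay below those of all other strains, and its deposited log2 fold change was -1.17 (adjusted p = 0.0165). Its partner trm82 had 528, 790.1 and 1216 in the double mutant, against 1294, 1419 and 1043 in wild type, overlapping, with a log2 fold change of -0.56 (adjusted p = 0.257). For trm7, which methylates the ribose in the anticodon loop, the counts were 1662, 1119 and 1605 in med20Δ, 848, 1509 and 1286 in rrp6Δ, 759, 1405 and 1232 in the double mutant, against 2622, 1929 and 2264 in wild type. All 9 mutant libraries lay below all 3 of wild type, the mutants overlapped with each other, and the log2 fold change was -0.65 (adjusted p = 0.441) in med20Δ, -0.87 (adjusted p = 0.0748) in rrp6Δ and -1.0 (adjusted p = 0.0342) in the double mutant. For trm732, annotated as a subunit of the same kind of enzyme, the counts were 1157, 1792 and 1786 in the double mutant, against 4641, 3044 and 2451 in wild type, with wild type spread widely, and the log2 fold change was -1.09 (adjusted p = 0.0391).

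**Figure D4:**
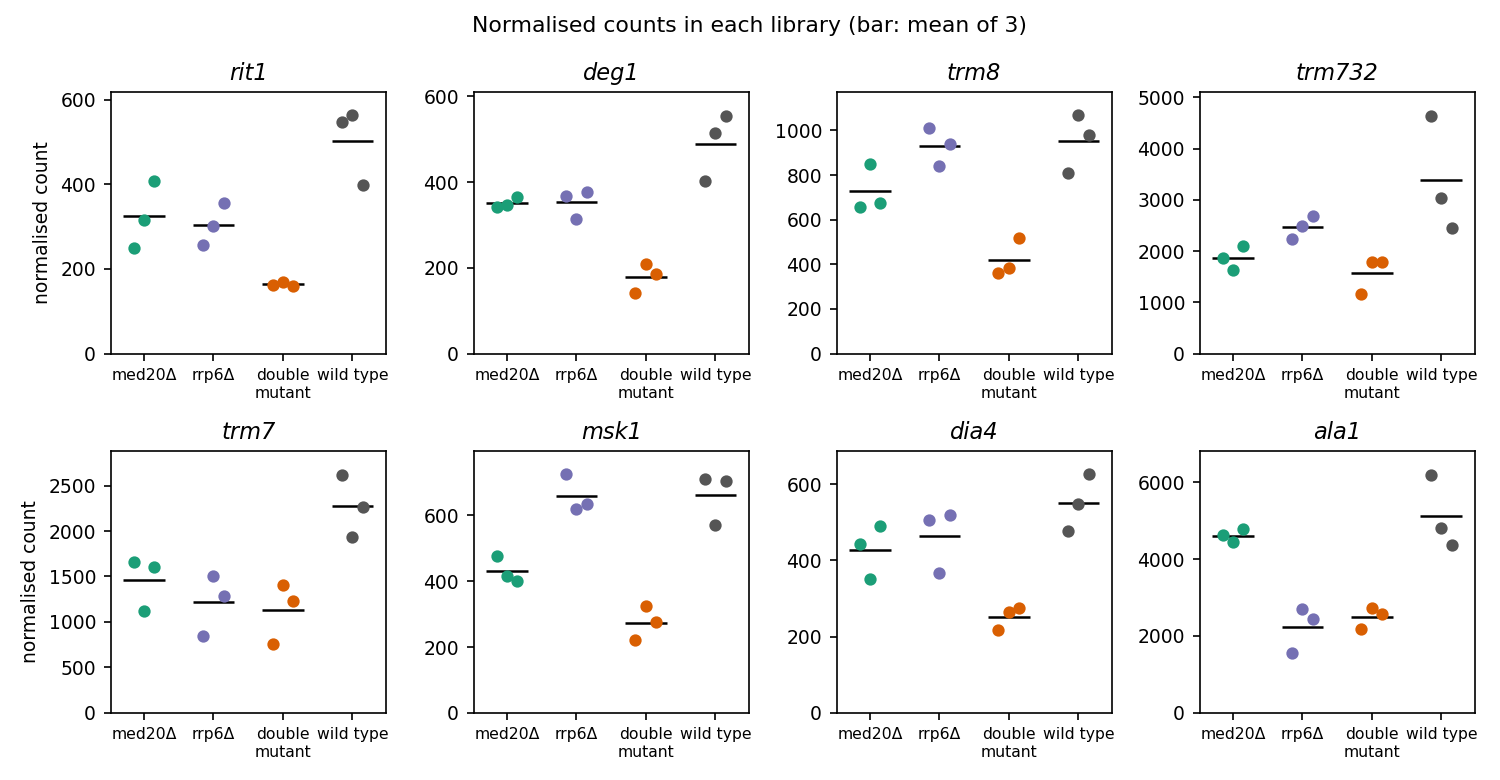
Normalised counts of 8 genes in each library, by strain, with bars at the mean of 3: the 5 called enzymes rit1, deg1, trm8, trm732 and trm7, the 2 called mitochondrial ligases msk1 and dia4, and ala1. In ala1 the rrp6Δ and double mutant points lie together (1557 to 2738), below med20Δ and wild type (4377 to 6188).

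By class, the deposited log2 fold changes in the double mutant had a median of -0.57 over 24 genes whose products read methyltransferase or methylase (3 lower), -0.64 over 6 pseudouridine synthases (1 lower), -0.88 over 4 dihydrouridine synthases (0 called) and 0.09 over 3 deaminases (0 called). Among the 4 dihydrouridine synthases, dus2 had 487, 475 and 540.1 in the double mutant, against 668, 1232 and 1106 in wild type, without overlap, with a log2 fold change of -0.99 (adjusted p = 0.0555). The 8 genes of splicing and end processing had a median of -0.31 with 0 called, the 3 nucleotidyltransferases, which add the CCA end or a guanine, -0.20 with 0 called, and the 3 hydrolases -0.22 with 0 called. Classes follow the wording of the product, so slm3, a thiouridylate methyltransferase by its product, stands with the methyltransferases (23 genes without it, median -0.57). The 14 remaining enzymes of various kinds, rit1, msf1 and mse1 among them, had a median of -0.33 with 1 lower, and -0.53 over 12 without msf1 and mse1. Outside these classes the isopentenyltransferase tit1 stood at -0.66, and tum1, which passes sulfur toward tRNA thiolation, stood at 0.96 (adjusted p = 0.245). The ligase trl1, which acts in tRNA splicing, had 686, 818 and 1065 in the double mutant, against 658, 869 and 698 in wild type, overlapping, and a log2 fold change of 0.21 (adjusted p = 0.813). The genes of tRNA splicing proper, the endonuclease subunits sen2, sen15, sen34 and sen54, lay between -0.27 and 0.05.

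**Figure D5:**
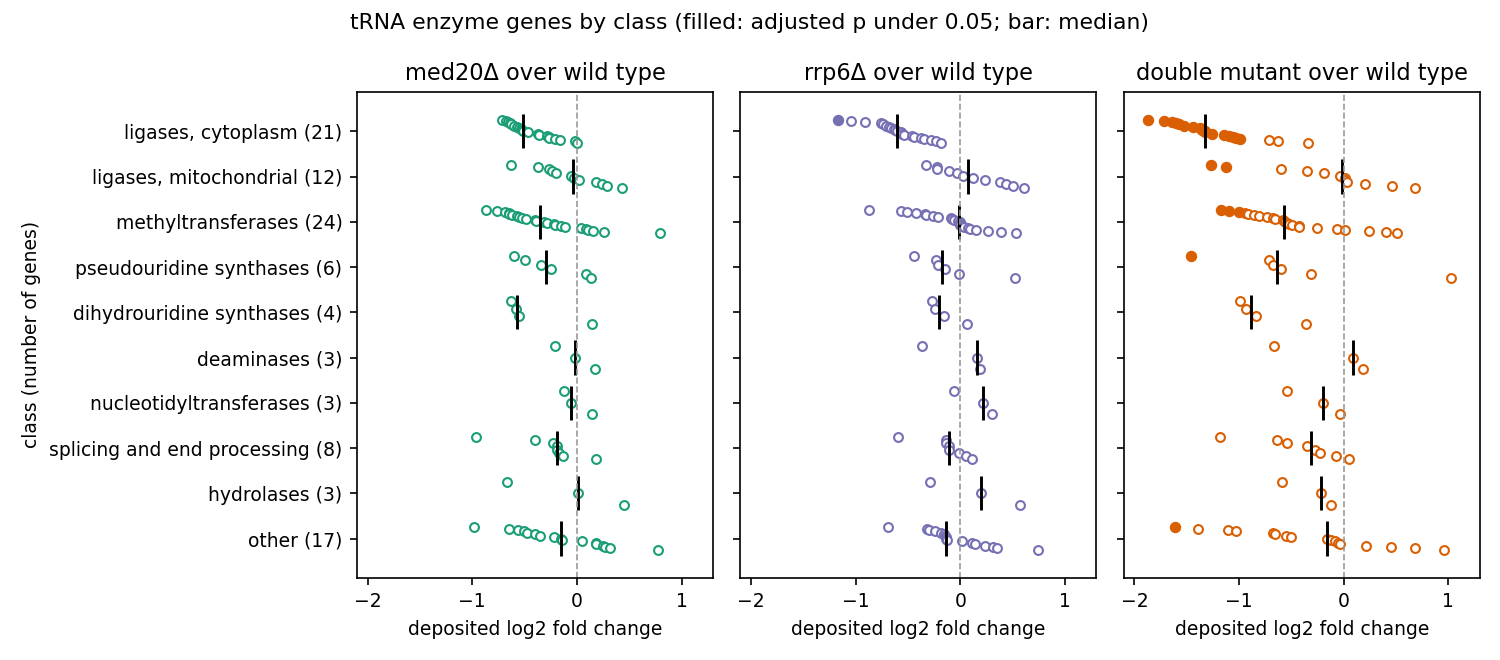
Each point is a gene at its deposited log2 fold change over wild type, by class (rows) and mutant (panels), filled where the adjusted p is under 0.05, with a bar at the class median. In the double mutant the ligases of the cytoplasm have their median at -1.33, and the mitochondrial ligases at -0.02.

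A few enzymes lay above wild type. The pseudouridine synthase pus2 had 665, 382 and 325 in the double mutant, against 239, 218 and 222 in wild type, apart, with a deposited log2 fold change of 1.02 (adjusted p = 0.106) and a limma estimate of 0.94 ± 0.27 (SE), adjusted p = 0.0178. The lysidine synthetase til1, which modifies a mitochondrial isoleucine tRNA, had 292, 265 and 259.6 in rrp6Δ, 257, 297 and 242 in the double mutant, against 186, 146 and 167 in wild type, with a deposited log2 fold change of 0.68 (adjusted p = 0.264) in the double mutant and a limma adjusted p of 0.04. For slm3, of mitochondrial wobble uridine thiolation, the counts were 414, 477 and 444 in med20Δ, against 196, 266 and 300.1 in wild type, with a deposited log2 fold change of 0.80 (adjusted p = 0.264) in med20Δ and a limma adjusted p of 0.0408. By contrast fmt1, which formylates the mitochondrial initiator, was rare and stood at 20.4, 14.9 and 23.1 in the double mutant, against 46.7, 60.6 and 46.4 in wild type, with a deposited log2 fold change of -1.39 (adjusted p = 0.0845). The amidotransferase subunit gta1, which completes mitochondrial glutamine tRNA, had 137, 139 and 110.2 in the double mutant, against 259, 274 and 258 in wild type, apart, and -1.03 (adjusted p = 0.0727).

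Against the single mutants, limma called 5 of the 67 other enzymes lower than in med20Δ (rit1, deg1, trm8, pus9 and pth2) and 1 higher (pus2), where 5.53% of genes tested were lower and 8.95% higher, and 5 of 67 is near the first of these. It called 7 lower than in rrp6Δ (rit1, deg1, trm8, trm6, dus2, gta1 and fmt1), where 3.81% were. The predicted tRNA hydrolase pth2 had 416, 558 and 601 in the double mutant, against 805, 1304 and 1167 in med20Δ. The log2 difference was -1.04 ± 0.29 (SE), adjusted p = 0.0278 by limma, while wild type at 526, 765 and 1083 overlapped with the double mutant. For trm6, a subunit of the enzyme that makes 1-methyladenosine, the counts were 466, 642 and 688 in the double mutant, against 1160, 941 and 1132 in rrp6Δ, a log2 difference of -0.86 ± 0.21 (SE), adjusted p = 0.0217 by limma. Scaled to total counts, 0 of the 67 were lower and 2 higher than in med20Δ, and 2 were lower and 1 higher than in rrp6Δ. Of the other enzymes, limma called 1 without double mutant 1 or without med20Δ 3 and 2 without med20Δ 2 against med20Δ, and against rrp6Δ 1 without double mutant 1 or without rrp6Δ 3, 3 without rrp6Δ 1 and 4 without rrp6Δ 2.

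Genes that supply or use charged tRNA were read from lists chosen with earlier results known. In the authors' deposited table of the double mutant, 19 of 53 genes of amino acid synthesis were lower and 1, gdh2 (glutamate dehydrogenase), higher, with a median log2 fold change of -0.71, where 6.71% of all genes were lower and 8.59% higher. The lowest was his1, of histidine synthesis, at -1.86 (adjusted p = 1.25e-05). Next came hom6 of homoserine synthesis (-1.58) and gln1, the glutamine synthetase (-1.54). The other 16 lay between -1.52 (ser2) and -0.96 (trp3) and were arg1, lys1, lys2, lys4, lys7, lys9, ilv1, trp2, met10, met14, met26, glt1, pro3 and hom2 beside those 2. In rrp6Δ 4 of these genes were lower (his1, lys7, ilv5 and ser2), where 1.00% of all genes were, and in med20Δ 0 were called. Of 14 translation factors that carry or meet tRNA, 5 were lower in the double mutant, against the same 6.71% of all genes: tif213 (-1.51), tef3 (-1.21), eft201 (-1.18), eft202 (-1.16) and tef5 (-1.06). Their deposited wild-type means ran from 16294 (tif213) to 155770 (tef3), and those of the 19 synthesis genes from 333 (lys7) to 88422 (met26). Abundant protein-coding genes were called lower more often: 4.04% at means of 200 to 1000, 6.72% at 1000 to 5000 and 24.3% at 5000 to 40000. The means of tef5, tef3, eft201, eft202, hom2 and met26 lay above these ranges, where no share is given. How much of these shares goes with level was not tested. The elongation factor genes eft201 and eft202 are near-identical copies, so their counts may be split between them. Among genes of wobble uridine modification outside the tRNA enzymes, the Elongator genes elp2 (-1.19) and elp4 (-1.12) were lower. Of 9 genes of amino acid starvation signalling, gcn1 (-1.47) was lower, and of 4 end-processing genes 0 were called.

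The scaling of the libraries bears on every level above. Total counts are those of the genes solved in all 12 libraries, not of all genes. Scaling to total counts moved the median log2 difference of all genes between the double mutant and wild type by 0.41, so that 6.0% of all genes tested were called lower and 26.8% higher by limma. Under that scaling 20 of 34 ligases were lower and 1 (SPBC24C6.03) higher, with 18 of 21 ligases of the cytoplasm still among the lower and srs1 at 0.06. The median was -0.96 over the ligases of the cytoplasm and 0.40 over the mitochondrial ones. The other 67 enzymes then had 4 lower and 6 higher, with a median of -0.11. The same 18 ligases of the cytoplasm were lower in the deposited table, by limma and by limma on total counts.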

How the data were processed

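Schizosaccharomyces pombe RNA from 4 strains with 3 samples each was enriched for poly(A) and made into libraries with dUTP in the second strand, per the labels' protocols. The submitters' processing notes name Bowtie 0.12.7 as an aligner and DESeq, which the authors used for their comparisons. The genome build, the annotation and the counting program were not stated in the sources used here. Nor was the use of strand in counting, so reads of a gene and of an antisense partner may not be told apart. Per the file headers, the authors deposited a table for each mutant against wild type. Per the file headers, its signal values are the mean of each strain's gene counts after DESeq scaling, and the authors give the ratio of these means as a fold change. The authors also deposited the log2 of that ratio. Each gene has a p-value, which the authors deposited with its adjusted value.

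The deposited means carry 15 significant digits, from which whole counts of the 3 libraries behind each mean were recovered by search (97.97% of med20Δ, 98.13% of rrp6Δ, 97.55% of double mutant and 99.43% of wild-type means). The 6595 wild-type genes solved on their own in all 3 tables gave identical counts in all 3. Unsolved means were all at 6329 or above. Recovery and fit were tested on simulated data. Depth was 8367062 to 11609729 recovered counts per library, over the 6688 genes solved in all 12 libraries.

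Calls against wild type rest on the deposited DESeq adjusted p under 0.05 of the authors. The double mutant against each single mutant, and the interaction, were tested with limma 3.58.1 (R 4.3.3), with its trend option. Its input was the log2 of normalised count + 1, with median-ratio size factors, a scale that understates changes of low genes. The 4 strains entered 1 model over 6111 genes solved in all 12 libraries with a mean of at least 10, and p was adjusted by Benjamini-Hochberg over all of them. All 101 tRNA enzyme genes were among them.

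Symbols and coding lengths are from RefSeq (ASM294v3), matched by locus tag for 101 of 101 genes, and no coordinates or sequences were taken from it. The genes, classes and lists were chosen with earlier results of these data known. Genes are named when called in any of 6 comparisons, when among the 5 ligases or 5 other enzymes with the largest rise or fall in a mutant (mean of at least 50 in 1 group), when among the 3 highest or lowest of their group per coding length in wild type, or when they are copies of 1 enzyme. Genes of the other pathway lists are named when called, except for 1 item that is not reported here. Other names were chosen after their values were seen, to stand for a class, a partner subunit or the genes left uncalled.

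Alternatives were an adjusted p under 0.01, a fold of at least 2, re-centring on the median gene, limma for the comparisons with wild type, pseudocounts of 0.5 and 5, no filter, total-count scaling, voom and leaving out each library.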

Additional observations from a re-analysis of the deposited data

How the results depend on the processing

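No paired analysis was possible because nothing in the tables ties a recovered library to a replicate letter. The count of ligases lower in the double mutant than in wild type, 20, was 11 at an adjusted p under 0.01 and 19 to 21 by limma with a library left out. Of the 25 tRNA enzyme genes called there, 23 were also called in every limma fit of that comparison. The exceptions were trm7 (adjusted p = 0.0628 scaled to total counts, 0.0692 without double mutant 1) and rar1 (0.0855 without double mutant 1, 0.0663 without wild type 1), and no named gene that was called changed direction under any alternative run.

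The count of other tRNA enzymes called in that comparison, 5, was 2 at an adjusted p under 0.01, 22 with limma, 10 with limma scaled to total counts and 29 without the 4 libraries that stand apart, an alternative chosen after seeing the data, as was total-count scaling against wild type. Within limma, leaving out a library took that 22 to between 8 and 23. In rrp6Δ, limma and limma without those 4 libraries called 2 ligases in place of the deposited 1, and limma with a library left out called 1 to 2. For the other enzymes, limma scaled to total counts and limma without the 4 libraries called 1 in place of 0 in rrp6Δ (0 to 1 by limma with a library left out), and limma called 1 in place of 0 in med20Δ (0 to 1 with a library left out).

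Against med20Δ, the double mutant's 15 ligases were 6 when scaled to total counts (4 to 18 with a library left out), and its 6 other enzymes were 2 when scaled to total counts and 10 without the 4 libraries (1 to 8). Against rrp6Δ, its 7 ligases were 11 without the 4 libraries (1 to 13), and its 7 other enzymes were 3 when scaled to total counts and 15 without the 4 libraries (1 to 8). The cause of these differences was not tested. Pseudocounts, voom and the absence of a filter kept each count against the single mutants within 1.5 times. The interaction was called for 0 genes under every alternative run. With 3 libraries per strain, a gene that was not called is not shown to be unchanged.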
